A study of Mus musculus with 797 samples.

Results

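Rorb glutamatergic nuclei were single nuclei, sorted from mouse brain, that carried reads of Slc17a7, the vesicular glutamate transporter VGLUT1, and of Rorb, with few or no reads of the GABA synthesis genes Gad1 and Gad2 or of the deep-layer genes Foxp2 and Tle4. They were chosen by measured values: among nuclei with at least 50000 gene reads and 1000 genes, Slc17a7 and Rorb each had to reach 10 CPM (counts per 1e6 gene reads of the nucleus), while Gad1 plus Gad2, Foxp2 and Tle4 each had to stay below 10 CPM. The rule took 66 nuclei out of 385 with Slc17a7 and without Gad1 or Gad2 (here called Slc17a7 nuclei), out of 781 nuclei past the read and gene minimum, and out of 797 labelled nuclei in all. The 319 other Slc17a7 nuclei comprised 194 with Rorb, Foxp2 and Tle4 all under 10 CPM, 111 with Foxp2 or Tle4 and no Rorb, and 14 with Rorb together with Foxp2 or Tle4.

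All nuclei came from C57Bl/6J mice given 1 adeno-associated virus each packaged in PHP.eB, a capsid that enters the brain from the blood, at 5e11 vector genomes per mouse in young adulthood, and were taken 3 to 4 weeks later. Each virus drove H2B-SYFP2, a histone joined to a yellow fluorescent protein, from an enhancer or promoter, and nuclei were sorted by flow cytometry for that fluorescence, so every group here carried a virus and no nucleus from an uninjected mouse was analysed. The 20 vector labels held 39 or 40 nuclei each: 16 AiE elements, the viral promoter CMV, the human synapsin promoter hSyn1, and the forebrain interneuron elements hI56i and DLX2.0. No label names an animal, so the nuclei of 1 vector count as 1 sample, nuclei are not replicates, and no test was run. Differences below are described by the fixed size of 1 log2 unit, with the spread (SD) over nuclei. Intervals are exact 95% intervals (Clopper-Pearson for shares) and cover counting error only.

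Rorb encodes the retinoic acid receptor-related orphan receptor beta, a nuclear receptor that binds DNA at AGGTCA-like sequences and competes there with the REV-ERB repressors. In mouse neocortex it is best known as a gene of layer 4, the layer that receives most thalamic input, and it is also read in many intratelencephalic neurons of layer 5. During development it takes part in the gathering of layer 4 neurons into the barrels of somatosensory cortex. The striatum, in contrast, is made up mainly of GABAergic spiny projection neurons.

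The nuclei were labelled striatum, whose principal neurons are GABAergic. The rule asks for Slc17a7 and drops nuclei with Gad1 or Gad2, so it removes spiny projection neurons by construction, and low levels of their genes here are no check of the label. Of 10 spiny projection neuron genes, 5 had reads in Rorb nuclei, with a summed level of up to 826 CPM and a median of 0, against up to 2008 CPM and a median of 0 in other Slc17a7 nuclei; Drd1, Drd2, Adora2a, Penk and Isl1 were at 0 in Rorb nuclei. Genes of cortical glutamatergic neurons were present: the transcription factor Neurod6 was read in 59.1% of Rorb nuclei and 44.8% of the others, and the pallial factor Tbr1 in 37.9% and 35.4%. "Rorb nuclei" is used here for the rule's members, with no claim about where in the brain they lay.

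Genes of other cell types were sparse but not absent. In Rorb nuclei, 4 of 6 astrocyte genes had reads, with a summed level of up to 1268 CPM, as had 4 of 7 oligodendrocyte lineage genes (up to 3297 CPM), 4 of 7 microglia and vessel genes (up to 512 CPM) and 2 of 6 thalamic genes (up to 1028 CPM). In other Slc17a7 nuclei the summed levels reached 3114, 4619, 836 and 1057 CPM for the same lists, and the median was 0 for each list in both groups. Aqp4 and Gja1 of astrocytes, Pdgfra of oligodendrocyte precursors, Csf1r and C1qa of microglia and Tcf7l2 of thalamus were at 0 in Rorb nuclei. The astrocyte gene Aldoc was read in 25.8% of Rorb nuclei and 17.9% of the others, a difference of 0.78 in mean log2(CPM+1), and of 1.43 among nuclei of library prefix AB-S40331, described next. The part of these genes in the results below was not tested.

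Depth was close in both groups. The median was 269038 gene reads in Rorb nuclei (range 112381 to 508144), against 281822 in other Slc17a7 nuclei (range 59683 to 549273). After thinning to 100000 reads per nucleus, the median was 2314.5 genes in the 66 Rorb nuclei and 2566 genes in the 317 other nuclei deep enough to thin; before thinning it was 2449 and 2709. Library names began with 1 of 3 prefixes, and nuclei of 1 prefix stood apart: 8 of the 66 Rorb nuclei had over 1% mitochondrially encoded reads, and all 8 had the prefix AB-S40317. Among other Slc17a7 nuclei, 26 of 319 passed that limit. Comparisons were therefore repeated within AB-S40331, whose 34 Rorb nuclei all lay below 1%. No 2 nuclei had identical counts.

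Because Rorb chose the nuclei, its level is a description. It had 10.1 to 2167 CPM in the 66 members with a median of 174 CPM, which came from 2 to 634 reads per nucleus with a median of 46.5. Few nuclei lay near the limit: the lowest members had 10.1, 11.2, 23.1, 32.4 and 32.98 CPM, and the highest nuclei just outside, otherwise eligible, had 7.77, 5.15, 4.56, 3.95 and 3.65 CPM. Only 2 members lay between 10 and 20 CPM, 41 lay above 100 CPM, and 11 nuclei outside had a Rorb read but missed the limit. Foxp2 or Tle4 had a read, under the limit, in 2 members. Rorb was also read in 16 of 310 nuclei with Gad1 or Gad2 and no Slc17a7 (5.16%).

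Rorb nuclei occurred under 15 of the 20 vector labels and made up 17.1% of all Slc17a7 nuclei (66 of 385, 13.5 to 21.3). The share was highest under AiE0475m, at 42.9% (6 of 14, 17.7 to 71.1), and under AiE0387m, at 38.2% (13 of 34, 22.2 to 56.4). It was lowest, among labels with a member, under AiE0445h_3xC2, at 5.56% (2 of 36, 0.68 to 18.7), and under AiE0779m, at 6.25% (2 of 32, 0.766 to 20.8). The interval of AiE0387m did not overlap those of AiE0445h_3xC2 and AiE0779m, while neighbours in the order overlapped widely.

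Between those ends lay CMV with 30.8% (4 of 13), AiE0447h with 29.6% (8 of 27), AiE0140h with 22.6% (7 of 31), hSyn1 with 21.1% (4 of 19), AiE0401h with 16.7% (6 of 36), AiE0743m_3xC2 with 15% (3 of 20), AiE0078h with 13.9% (5 of 36), AiE0600m with 12.5% (1 of 8), AiE0410m with 11.8% (2 of 17), AiE0391h with 8.70% (2 of 23) and AiE0390m with 8.33% (1 of 12). AiE0450h, AiE0452h, AiE0682h, DLX2.0 and hI56i had no Rorb nucleus, but only 2 to 8 Slc17a7 nuclei each. For each of these 5, 0 of 39 kept nuclei were Rorb nuclei; the exact interval reaches 9.03%, and a limit of 3 counts would be 7.69%.

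Vector and library prefix moved together. Of the 13 AiE0387m Rorb nuclei, 9 had the prefix AB-S40317; all 4 of CMV had AB-S40330, and all 8 of AiE0447h had AB-S40331. By prefix, Rorb nuclei were 20.4% of Slc17a7 nuclei in AB-S40317 (20 of 98, 12.9 to 29.7), 27.3% in AB-S40330 (12 of 44, 14.96 to 42.8) and 13.99% in AB-S40331 (34 of 243, 9.89 to 19). Neither AiE0475m nor CMV had a Rorb nucleus in AB-S40331. Whether prefix has a part in the shares by vector was not tested.

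**Figure D1:**
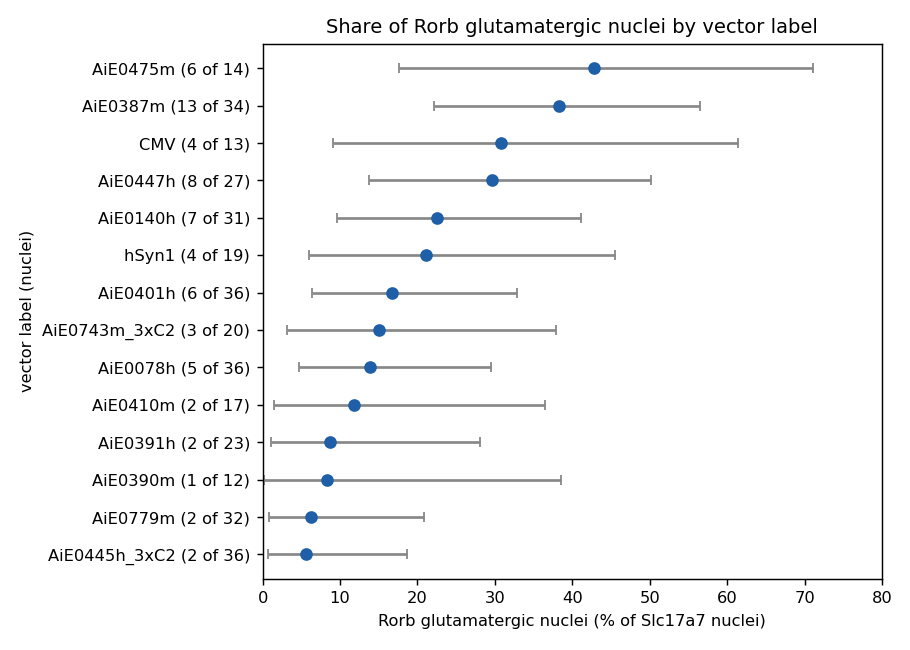
Share of Rorb nuclei among Slc17a7 nuclei (x axis, percent) for each vector label with at least 10 Slc17a7 nuclei (y axis, with members and nuclei). Points are shares and bars exact 95% intervals of counting error; AiE0475m at 42.9% and AiE0387m at 38.2% stand at the top, AiE0445h_3xC2 at 5.56% at the bottom.

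Levels are means of log2(CPM+1) over nuclei, and a difference is Rorb nuclei minus other Slc17a7 nuclei on that scale. It combines how many nuclei had a read with how high those nuclei were. Of 8920 genes read in at least 10% of Slc17a7 nuclei, 210 were higher by 1 log2 unit or more (2.35%) and 331 were lower (3.71%), with a median over all genes of -0.09. Within AB-S40331 the counts were 329 (3.69%) and 682 (7.65%). Of the 210 higher genes, 208 kept their sign there and 141 also passed 1 log2 unit; of the 331 lower genes, 330 and 259 did. The other nuclei hold all Foxp2 or Tle4 nuclei by construction, so a second comparison used only the 194 nuclei without Rorb, Foxp2 and Tle4. It gave 294 higher genes (3.3%) and 256 lower genes (2.87%), and 178 of the 210 and 196 of the 331 passed in both. These comparisons share the same Rorb nuclei.

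The largest positive differences among the named genes were those of Pamr1, Dkkl1, Ptn and Brinp3, each over 3 log2 units. Pamr1, which encodes a secreted protein with a peptidase-like domain (chr2:102550012-102643041, plus strand), was read in 71.2% of Rorb nuclei (47 of 66, 58.8 to 81.7) and 29.2% of the others (93 of 319, 24.2 to 34.5). Its level was 6.42 ± 4.37 in Rorb nuclei and 2.52 ± 4.06 in the others (SD over 66 and 319 nuclei), a difference of 3.91, and 3.07 within AB-S40331. In the 9 vector labels with at least 3 nuclei of each group, which hold 56 of the 66 members, the mean level in Rorb nuclei ran from 4.90 to 9.91 with a median of 6.16, and in other nuclei from 1.33 to 4.37 with a median of 2.30. The ranges over labels did not overlap, and Pamr1 was higher in Rorb nuclei in 9 of 9 labels. The named genes were chosen by size of difference in these same nuclei, so agreement across labels describes them and is no separate check. The share of all genes that do so is not given here.

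Brinp3, a BMP- and retinoic acid-inducible neural protein (chr1:146494760-146902472, plus strand), was the most widely read of them. It had reads in 92.4% of Rorb nuclei (61 of 66, 83.2 to 97.5), against 66.8% of the others (213 of 319, 61.3 to 71.9), and a level of 8.68 ± 2.89, against 5.57 ± 4.22. The difference was 3.11 over all nuclei and 3.47 within AB-S40331. Over the 9 labels the mean in Rorb nuclei ran from 6.66 to 9.99 with a median of 8.998, and in the others from 4.60 to 6.49 with a median of 5.62. Again the ranges of label means did not overlap, although single nuclei did.

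Cpne9, a copine that binds membranes in the presence of calcium (chr6:113282307-113305627, plus strand), set the groups apart less. It was read in 59.1% of Rorb nuclei (39 of 66) and 37.6% of the others (120 of 319), at levels of 4.95 ± 4.38 and 2.87 ± 3.94. Over labels the means ran from 3.89 to 7.55 in Rorb nuclei and from 1.21 to 5.47 in the others, so the ranges overlapped. Cpne9 was higher in 8 of 9 labels and lower by 1.58 under AiE0140h.

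Read together, Brinp3, Pamr1 and Cpne9 were all present in 26 of 66 Rorb nuclei (39.4%), against 31 of 319 others (9.72%). Exactly 2 of them were read in 31 Rorb nuclei and in 98 others. None was read in 2 Rorb nuclei and 53 others. The 3 genes were rare in nuclei with Gad1 or Gad2 and no Slc17a7, except Brinp3: Pamr1 was read in 5 of 310 (1.61%), Cpne9 in 11 (3.55%) and Brinp3 in 83 (26.8%). Among the 66 Rorb nuclei, the pairing of markers was loose. Pamr1 and Dkkl1 were both read in 28, Pamr1 alone of that pair in 19, Dkkl1 alone in 12 and neither in 7.

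Dkkl1, a secreted relative of the Dickkopf Wnt inhibitors (chr7:45207519-45212147, minus strand), was, of the 15 higher genes named here, the one least often read in other nuclei. It had reads in 60.6% of Rorb nuclei (40 of 66, 47.8 to 72.4), against 17.6% of the others (56 of 319, 13.5 to 22.2), and in 2 of 310 GABAergic nuclei. Its level was 5.12 ± 4.35 in Rorb nuclei and 1.42 ± 3.14 in the others. Over labels the means ran from 3.07 to 6.91 in Rorb nuclei with a median of 5.84, and from 0.36 to 2.87 in the others with a median of 1.12. Ptn, the heparin-binding growth factor pleiotrophin, was read in 87.9% of Rorb nuclei and 56.4% of the others, at 7.96 ± 3.26 and 4.84 ± 4.42, a difference of 3.11. Its difference was 2.12 against nuclei without Rorb, Foxp2 and Tle4, and its smallest within a label was 0.62 under AiE0078h.

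**Figure D2:**
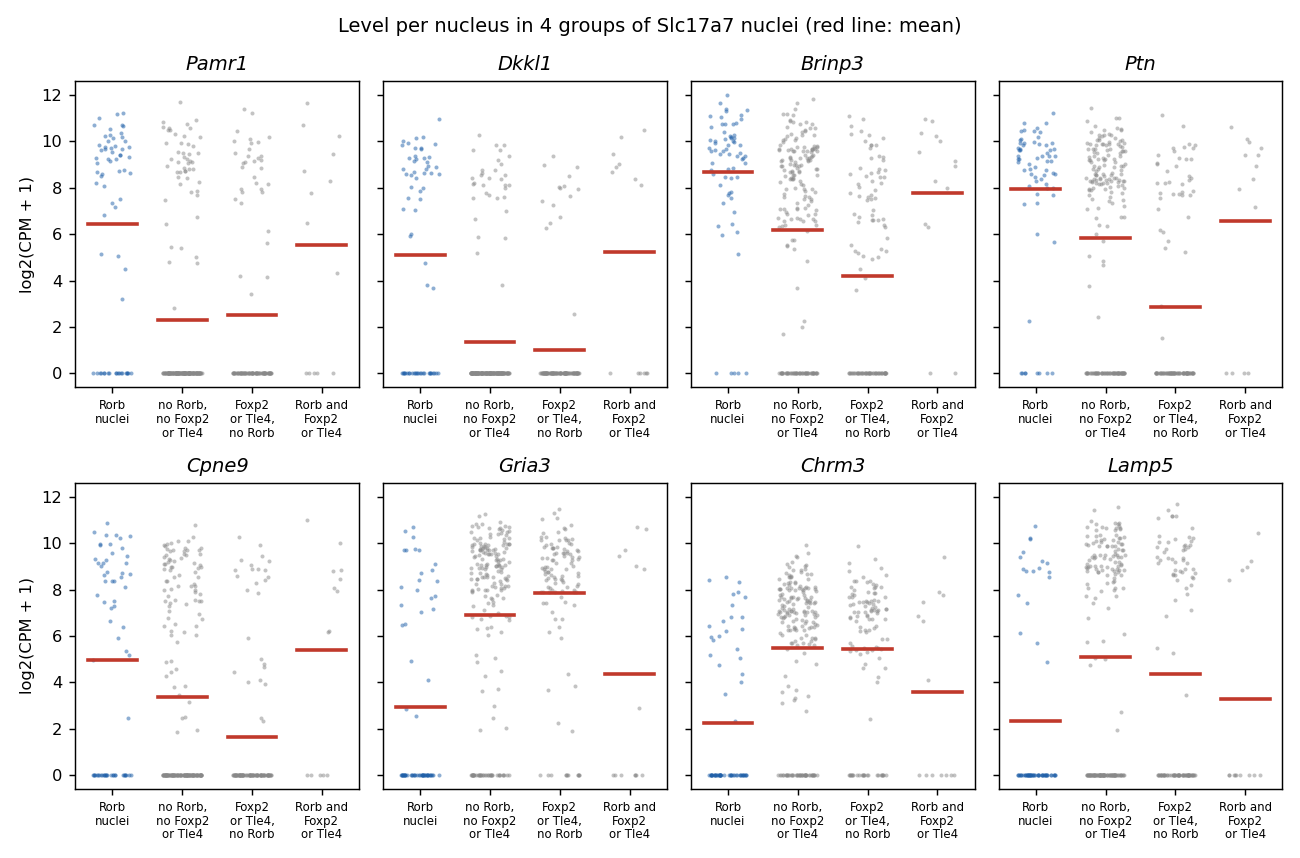
Each point is 1 nucleus at its log2(CPM+1) value (y axis) for 8 genes, in the 66 Rorb nuclei (left, blue), the 194 nuclei without Rorb, Foxp2 or Tle4, the 111 with Foxp2 or Tle4 and no Rorb, and the 14 with Rorb and Foxp2 or Tle4; red lines are means. Nuclei lie either at 0 or mostly above 4, and the groups differ mainly in how many lie at 0: Pamr1 was read in 47 of 66 Rorb nuclei, Gria3 in 25.

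The 14 nuclei with Rorb and also Foxp2 or Tle4, which the rule leaves out, are given as values alone. Dkkl1 averaged 5.12 in Rorb nuclei, against 5.23 in these 14 nuclei, 1.37 in nuclei without Rorb, Foxp2 and Tle4, and 1.01 in nuclei with Foxp2 or Tle4 and no Rorb. Cpne9 averaged 4.95 in Rorb nuclei, against 5.39 in the 14 nuclei, 3.39 in nuclei without the 3 genes and 1.66 in those with Foxp2 or Tle4 alone. Gria3 averaged 2.94 in Rorb nuclei, against 4.37, 6.91 and 7.84 in the other groups taken in that order. With 14 nuclei, 1 nucleus more or less moves these means, and no order was read among them.

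The genes named here are the 15 with the largest positive and the 15 with the largest negative difference among genes read in at least 20% of Slc17a7 nuclei that kept their sign in both repeats. Where a read was present, levels differed less than the means over all nuclei did. Among nuclei with a read, the median CPM of the 15 higher genes differed by 0.14 to 1.85 on the log2 scale, with a median of 0.54, and 13 stayed within 1 log2 unit. For the 15 lower genes it ran from -1.24 to 0.56 with a median of -0.65, and 12 stayed within 1 log2 unit. Pamr1, for instance, had a median of 684 CPM in the 47 Rorb nuclei with a read and 537 CPM in the 93 others with one.

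Beside those already given, the higher genes included secreted and signalling proteins. Nrep, a small protein linked to neuronal regeneration, was read in 53.0% of Rorb nuclei and 19.7% of the others, a difference of 2.98. Where read, it had a median of 471 CPM in Rorb nuclei and 130 CPM in the others. Across labels its difference was 0.01 under AiE0387m and 8.27 under AiE0078h, although it was positive in 9 of 9. Rgs4, which shortens signalling through Gi- and Gq-coupled receptors, reached 7.03 ± 4.72 in Rorb nuclei and 4.09 ± 4.61 in the others, higher in 9 of 9 labels. Coch, the matrix protein cochlin, was read in 48.5% of Rorb nuclei and 20.4% of the others.

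Dnajc21, a chaperone cofactor of ribosome maturation, differed by 2.72 and was higher in 9 of 9 labels, as was the vesicle membrane protein gene Nrsn1 with 2.45. Ccdc136 (2.60), the zinc finger gene Zmat4 (2.51) and BC030499 (2.25) were each higher in 8 of 9 labels. Against nuclei without Rorb, Foxp2 and Tle4, the difference of BC030499 was 1.22.

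Ion channels and receptors stood on both sides. Cacna2d3, an auxiliary alpha2delta subunit of voltage-gated calcium channels, differed by 2.704, and Kcna2, the potassium channel Kv1.2, by 2.28. Grm7, the presynaptic metabotropic glutamate receptor mGluR7, differed by 2.21, and was read in 90.9% of Rorb nuclei and 68.3% of the others. Each was higher in 8 of 9 labels. The exception was AiE0401h for Cacna2d3 and Grm7, and CMV for Kcna2.

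Of the 30 named genes, the largest difference in either direction was that of Gria3, the GluA3 subunit of AMPA receptors (chrX:41400854-41678601, plus strand). It was read in 37.9% of Rorb nuclei (25 of 66, 26.2 to 50.7), against 82.1% of the others (262 of 319, 77.5 to 86.2). Its level was 2.94 ± 4.03 in Rorb nuclei and 7.12 ± 3.70 in the others, a difference of -4.18, and of -4.73 within AB-S40331. Over the 9 labels the means ran from 1.62 to 4.56 in Rorb nuclei with a median of 2.58, and from 5.40 to 9.44 in the others with a median of 7.14. In every label the mean of Rorb nuclei lay below the lowest label mean of the others. Gria3 was chosen by size of difference in these same nuclei, so this describes it and is no separate check. Some label means rest on as few as 3 Rorb nuclei, and the share of all genes without such overlap is not given here. Single nuclei did overlap: Rorb nuclei reached 1678 CPM, and the lowest of the others had 0. Against nuclei without Rorb, Foxp2 and Tle4 the difference was -3.97.

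Chrm3, the muscarinic acetylcholine receptor M3 (chr13:9875486-10360847, minus strand), showed the same separation. It was read in 36.4% of Rorb nuclei (24 of 66, 24.9 to 49.1), against 76.5% of the others (244 of 319, 71.4 to 81.0), at 2.24 ± 3.13 and 5.39 ± 3.22. By label, means ran from 0 to 3.22 in Rorb nuclei and from 4.28 to 6.34 in the others, with no overlap. The limits given for Gria3 hold for Chrm3 too. The difference was -3.16 over all nuclei, -3.57 within AB-S40331 and -3.26 against nuclei without Rorb, Foxp2 and Tle4.

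The remaining lower genes included 4 transcription regulators. Nfib, a nuclear factor I protein of deep-layer and glial development, differed by -2.57, the TALE homeobox factor Meis2 by -2.42, the HLH factor Id2 by -2.28 and Sox5, a factor of deep-layer neurons, by -2.21. Meis2 was read in 9.09% of Rorb nuclei (6 of 66) and 45.5% of the others, and Sox5 in 7.58% (5 of 66) and 37.9%. Sox5 and Nfib were highest in the Foxp2 or Tle4 nuclei, at 3.88 and 6.47, against 0.48 and 2.30 in Rorb nuclei. Set against nuclei without Rorb, Foxp2 and Tle4, Sox5 still differed by -1.68 and Nfib by -1.91. Nfib and Meis2 were lower in 9 of 9 labels, Sox5 in 8 and Id2 in 7.

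Enzymes, adhesion molecules and secretory genes made up the rest. Me3, the mitochondrial malic enzyme, was read in 13.6% of Rorb nuclei (9 of 66) and 55.2% of the others. Pde4d, a cAMP phosphodiesterase, differed by -3.03, the plasma membrane calcium pump Atp2b4 by -2.31, the granin Scg3 by -2.30 and the nitric oxide synthase adaptor Nos1ap by -2.16. Opcml, an IgLON adhesion molecule, stayed frequent: it was read in 75.8% of Rorb nuclei and 88.1% of the others, at 6.34 ± 4.20 and 8.73 ± 3.50. The synaptogenic matrix protein gene Sparcl1 differed by -2.19 and Dip2b by -2.18. Pde4d, Opcml and Sparcl1 were lower in 9 of 9 labels.

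Lamp5, a membrane protein gene read strongly in upper-layer neurons, was lower by 2.45 on the log2 scale, at 2.32 ± 3.90 in Rorb nuclei and 4.76 ± 4.69 in the others, but not in every label. It was lower in 6 of 9 labels and higher in 3, with differences between -5.96 under hSyn1 and 1.57 under AiE0743m_3xC2.

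**Figure D3:**
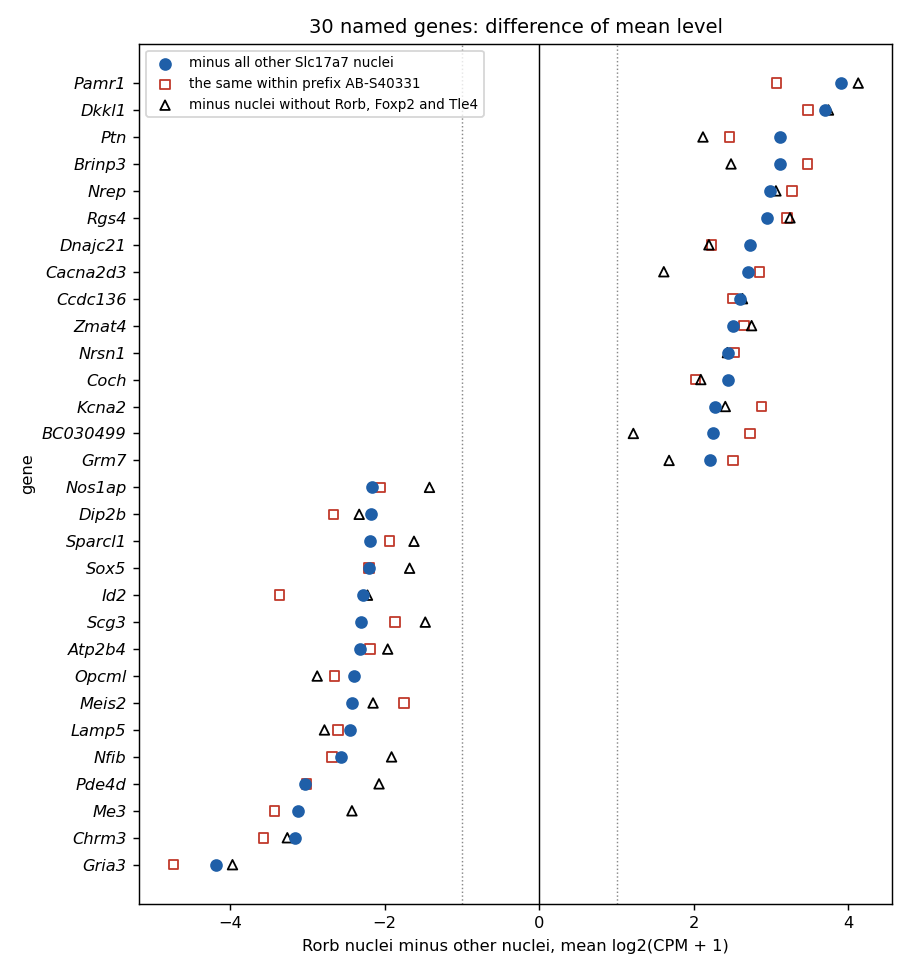
Difference of mean log2(CPM+1), Rorb nuclei minus other nuclei (x axis), for the 30 named genes (y axis). Filled circles use all other Slc17a7 nuclei, squares nuclei of prefix AB-S40331 alone, triangles the 194 nuclei without Rorb, Foxp2 and Tle4; dotted lines mark 1 log2 unit, and all 3 symbols of a gene lie on 1 side of 0 because genes were named only if they did.

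**Figure D4:**
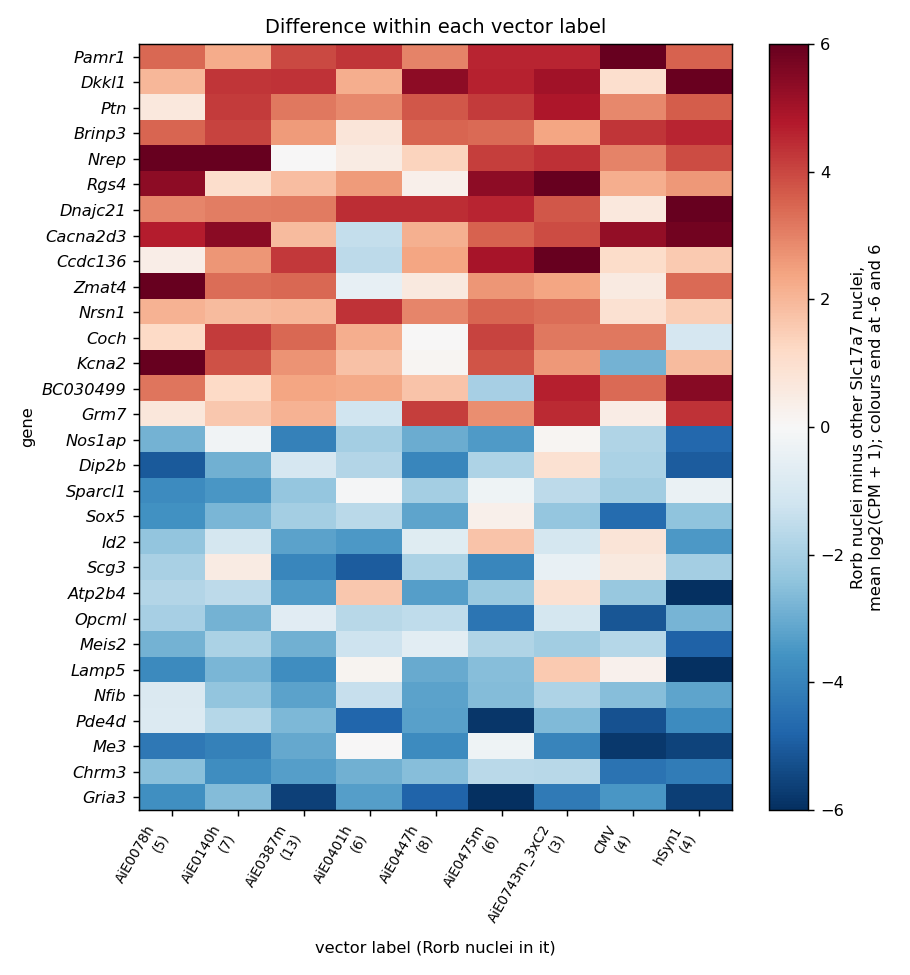
Difference of mean log2(CPM+1), Rorb nuclei minus other Slc17a7 nuclei (colour), for the 30 named genes (rows) within each of the 9 vector labels (columns, with the number of Rorb nuclei). Red is higher and blue lower in Rorb nuclei; Pamr1, Dkkl1, Ptn, Brinp3, Nrep, Rgs4, Dnajc21 and Nrsn1 are higher in 9 of 9 columns, and columns rest on as few as 3 Rorb nuclei.

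Relatives of the named genes were then read by family, the families chosen after these values had been seen. For comparison, 2.35% of all genes were higher and 3.71% lower by 1 log2 unit or more. Of the 4 AMPA receptor subunits, Gria3 and Gria1 were lower, with differences of -4.18 and -2.14, Gria4 was higher by 1.66, and Gria2 differed by -0.11. Gria2, the subunit that limits calcium entry, was read in every nucleus of both groups. Gria4 was read in 86.4% of Rorb nuclei and 69.0% of the others, higher in 7 of 9 labels. Among metabotropic glutamate receptors, Grm7 (2.21), Grm2 (1.60) and Grm3 (1.18) were higher, Grm8 (-1.39) was lower, and Grm5 differed by -0.03. Within AB-S40331, Grm2 differed by 0.51, and without AB-S40317, Grm3 differed by 0.66.

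Among 5 muscarinic receptors, Chrm3 alone of the 3 that passed the filter differed by 1 log2 unit; Chrm1 differed by -0.13 and Chrm2 by 0.27. Of the IgLON genes, Negr1 was higher by 1.92 while Opcml was lower, and Ntm and Lsamp differed by 0.81 and 0.52. Kcna2 and Kcna4 (1.001) were the higher Kv1 subunits among 4 that passed, with Kcna1 at -0.72 and Kcna6 at -0.35; Kcna4 differed by 0.85 within AB-S40331 and fell short of 1 log2 unit under 15 of 33 alternatives. Of 4 PDE4 genes, Pde4d was lower, and Pde4a and Pde4b differed by 0.61 and 0.43. Nfia was lower with Nfib, by 1.08, but differed by -0.47 against nuclei without Rorb, Foxp2 and Tle4; Nfic and Nfix differed by 0.29 and 0.36. Meis3, a relative of the lower gene Meis2, differed by 0.49.

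Layer genes were grouped in lists by layer. Of 11 layer 4 or Rorb-type genes other than Rorb, 8 passed the filter and all 8 were higher by 1 log2 unit or more, with a median of 1.81, against 2.35% higher and a median of -0.09 over all genes. Pamr1, Brinp3 and Cpne9 came as markers with the rule, and the list was chosen with earlier results known, so these counts are a description. Several of the 8 genes are read in so few other nuclei that they could pass the filter mainly through Rorb nuclei. Beside Pamr1, Brinp3 and Cpne9, they were the homeobox factor Cux1 (1.89), the stereocilia scaffold Whrn (1.72), Rora (1.56), the potassium channel Kcnh5 (1.44) and the Wnt agonist Rspo1 (1.11). Within AB-S40331, 6 of the 8 passed, and Kcnh5 and Rora differed by 0.97 and 0.85. Rspo1 was higher in 5 of 9 labels. The 3 that failed the filter were Scnn1a, an epithelial sodium channel subunit used as a layer 4 marker, Il1rapl2 and Endou. Scnn1a was read in 4 of 66 Rorb nuclei (6.06%) and 1.25% of the others, Endou in 10.6% and 1.57%, and Il1rapl2 in 16.7% and 8.46%.

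Layer 2/3 genes did not move together. Of 10, 8 passed the filter: Pou3f3 was higher by 1.05, Lamp5 lower, and the median was -0.09. Among all genes, 2.35% were higher and 3.71% lower, with a median of -0.09. Cux2, a homeobox factor of upper layers, was read in 37.9% of Rorb nuclei and 26.02% of the others, a difference of 0.92. Calb1 differed by 0.33, and Otof had no read in any Rorb nucleus, against 8.15% of the others.

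Genes of layer 5 extratelencephalic neurons, which project below the cerebrum, came next. Of 4 that passed the filter among 10, Ldb2 was lower by 1.39 and Bcl11b by 1.25, against 3.71% lower over all genes. Crym and Fezf2 differed by -0.89 and -0.70. Bcl11b, the factor CTIP2, was read in 2 of 66 Rorb nuclei (3.03%) and 22.3% of the others. These genes were also read in Foxp2 or Tle4 nuclei; against nuclei without Rorb, Foxp2 and Tle4, Bcl11b differed by -0.53 and Ldb2 by -1.07. The 2 layer 5 intratelencephalic genes that passed, Etv1 and Sulf2, differed by -0.50 and 0.09, and Deptor, under the filter, was read in 13.6% of Rorb nuclei and 8.46% of the others.

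Of 11 layer 6 genes other than Foxp2 and Tle4, the 4 that passed the filter all differed by less than 1 log2 unit: Col5a1 by -0.88, Garnl3 by -0.83, and Hs3st4 and Rprm by -0.17 each. Against nuclei without Rorb, Foxp2 and Tle4 they differed by -0.01, 0.49, 0.43 and 0.30. Syt6, Cplx3, Nxph4, Ntsr1 and Zfpm2, all under the filter, had no read in any Rorb nucleus. How often the others had one is not given here. The rule keeps nuclei with Foxp2 or Tle4 out of the Rorb nuclei, and the others are more numerous, so these zeros are a description alone. Among 10 general glutamatergic genes, Slc30a3, the synaptic vesicle zinc transporter, was higher by 1.51, Neurod6 by 1.09 and Neurod1 by 1.02, while Tbr1, Camk2a, Mef2c and Nrgn differed by 0.62, 0.51, 0.79 and 0.37. Within AB-S40331, Neurod1 differed by -0.11 and Neurod6 by 0.87. The shares over all genes were 2.35% higher and 3.71% lower.

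**Figure D5:**
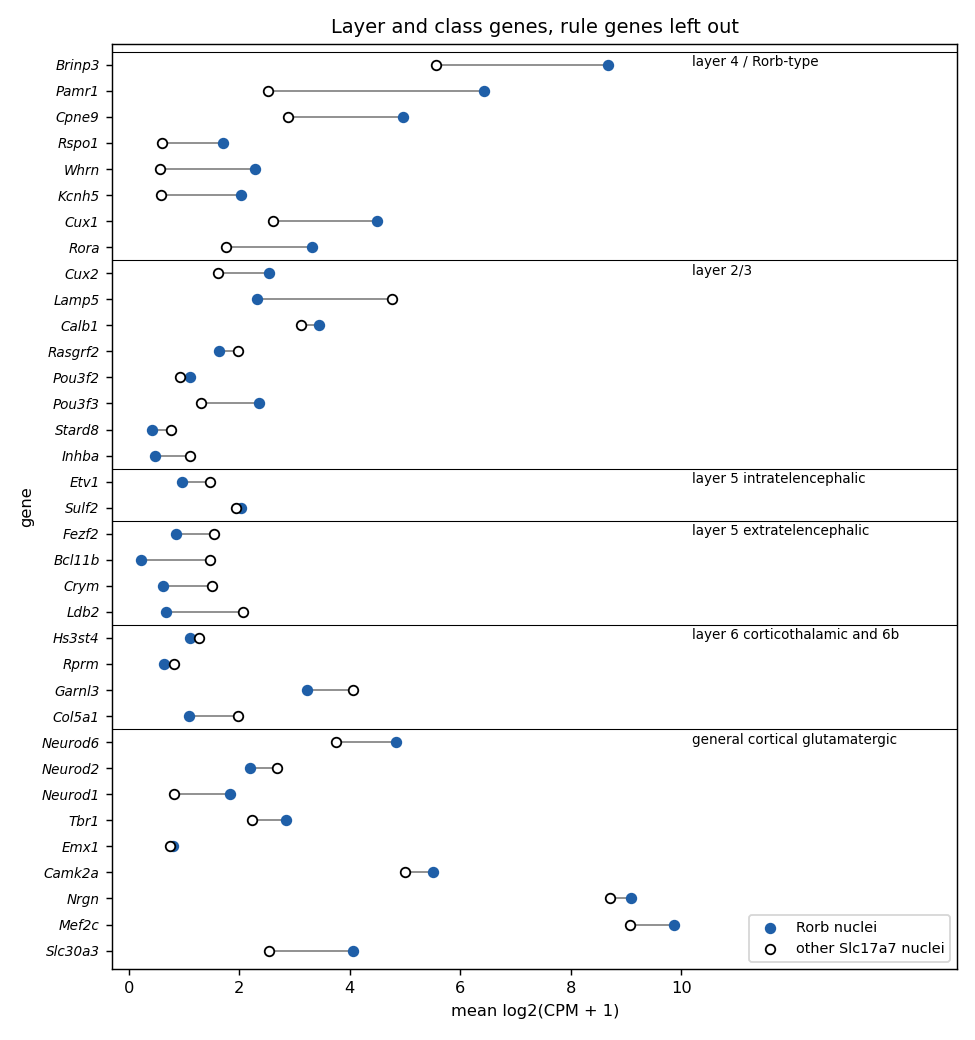
Mean log2(CPM+1) (x axis) in the 66 Rorb nuclei (filled) and the 319 other Slc17a7 nuclei (open) for the layer and class genes shown, all past the filter on low genes (y axis), genes of the rule left out. In the layer 4 block at the top all 8 filled points lie to the right, by 1.11 (Rspo1) to 3.91 (Pamr1). That list was chosen with earlier results of these data known, and Pamr1, Brinp3 and Cpne9 came as markers with the rule. Several of its genes could pass the filter mainly through Rorb nuclei. In the layer 5 extratelencephalic block all 4 filled points lie to the left.

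The nuclear receptor partners of Rorb were read next. Of 17 ROR, REV-ERB and clock genes other than Rorb, 15 passed the filter; 5 were higher by 1 log2 unit or more, 0 were lower, and the median was 0.34, against 2.35% higher, 3.71% lower and a median of -0.09 over all genes. Rora, the receptor most closely related to Rorb, was read in 47.0% of Rorb nuclei and 25.4% of the others. Nr1d1 and Nr1d2, the REV-ERB repressors, were higher by 1.43 and 1.25. Arntl, the clock activator BMAL1, was higher by 1.496 and in 9 of 9 labels, and Bhlhe40, a repressor in the same loop, by 1.32. Clock, the partner of Arntl, differed by 0.55, Per1 by -0.21, Per2 by 0.27, Cry1 and Cry2 by 0.25 each and Dbp by 0.34. Within AB-S40331 the differences were 1.60 for Arntl, 1.87 for Nr1d2, 1.65 for Bhlhe40 and 0.93 for Nr1d1. Nr1d2 was higher in 6 of 9 labels. Hour of collection, which clock genes follow, is not given by the labels.

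Sequence before an annotated start is shown for Rorb, which defines the nuclei, and for 2 of these clock genes, 1 past 1 log2 unit and 1 not. It is shown because AGGTCA is the core of the sequence that ROR and REV-ERB proteins bind. Each is the 250 bases before a RefSeq start on GRCm38.p6, 5′ to 3′ on the gene's strand, chosen to overlap no GENCODE exon; capitals mark AGGTCA or its reverse complement TGACCT. The windows are chr19:19111197-19111446 (minus strand) for Rorb, chr7:113207215-113207464 (plus strand) for Arntl and chr5:76303503-76303752 (minus strand) for Clock.
Rorb: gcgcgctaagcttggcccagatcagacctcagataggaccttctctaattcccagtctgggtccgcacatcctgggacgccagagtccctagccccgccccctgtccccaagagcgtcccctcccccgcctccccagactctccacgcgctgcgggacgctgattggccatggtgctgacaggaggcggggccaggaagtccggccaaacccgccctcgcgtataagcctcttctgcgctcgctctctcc
Arntl: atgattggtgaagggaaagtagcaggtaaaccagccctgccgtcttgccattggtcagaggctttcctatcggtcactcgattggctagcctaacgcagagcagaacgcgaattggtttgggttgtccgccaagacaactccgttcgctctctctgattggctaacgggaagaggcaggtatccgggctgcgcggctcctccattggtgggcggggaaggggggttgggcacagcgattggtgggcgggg
Clock: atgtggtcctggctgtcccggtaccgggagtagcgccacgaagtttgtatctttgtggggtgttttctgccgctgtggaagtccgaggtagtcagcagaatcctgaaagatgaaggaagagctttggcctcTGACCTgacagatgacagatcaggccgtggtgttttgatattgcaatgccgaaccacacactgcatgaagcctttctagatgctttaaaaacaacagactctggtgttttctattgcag
AGGTCA or TGACCT was found in the Clock window shown and in neither of the other windows shown. Further windows of Clock and Arntl, which overlap exons, held none. Those of Clock, chr5:76304549-76304798 and chr5:76304793-76305042, lie upstream of the Clock window shown, as the gene is on the minus strand. The Clock window shown thus lies within transcripts that begin at those further starts, and is upstream sequence only for its own start. In the clock list, a window each of Nfil3, Nr1d2 and Per1 also held it, and these windows overlap exons. Over both strands, 14% of all 32851 promoter windows of the same length held it. For the clock list, here with Rorb in it, 4 of 21 windows (15 matched genes) did, and 0 of 2 for Rorb alone. Among the named genes, 1 of 17 windows (11 matched genes) of the 15 higher and 1 of 15 (12 matched genes) of the 15 lower did. These are letter matches in short windows and say nothing about binding elsewhere.

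Copines and BRINPs, the families of Cpne9 and Brinp3, were mixed. Of 12, 10 passed the filter, 3 were higher (Brinp3, Cpne9 and Cpne8) and 0 lower, with a median of 0.34, against 2.35% higher and 3.71% lower over all genes. Cpne8 was higher by 1.31 and in 5 of 9 labels, Brinp1 and Brinp2 differed by 0.91 and 0.70, and Cpne6 and Cpne5 by -0.88 and -0.75. Cpne5 passed 1 log2 unit within AB-S40331, at -1.05, and Cpne6 did against nuclei without Rorb, Foxp2 and Tle4, at -1.30. Among genes of cortical area and barrel patterning, Id2 was lower, the barrel dendrite regulator Btbd3 differed by 0.91, the areal factor Nr2f1 by 0.77 and Lmo4 by -0.89; Lmo4 differed by -1.67 within AB-S40331.

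Immediate early genes, which respond to neuronal activity and to tissue handling, were partly higher. Of 13, 12 passed the filter; Dusp1 (1.69), Nr4a1 (1.21) and Arc (1.12) were higher by 1 log2 unit or more and 0 were lower, with a median of 0.60, against 2.35% higher, 3.71% lower and a median of -0.09 over all genes. Fos differed by 0.85, Egr1 by 0.75, Egr3 by 0.91, Npas4 by 0.17 and Junb by -0.29. Dusp1 moved with prefix: its difference was 0.40 within AB-S40331. Arc differed by 1.10 there, but over labels ran from -3.96 under AiE0447h to 6.06 under AiE0475m, and without AiE0475m its difference was 0.73. None of 8 cytoplasmic and mitochondrial genes reached a difference of 1 log2 unit over all nuclei; Rps3 differed by -1.56 and mt-Nd1 by 1.01 within AB-S40331.

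Gene length was set beside these counts. The median gene span was 57.7 kb for the 210 higher genes and 47.3 kb for the 331 lower genes, against 28.2 kb for all genes tested. For the higher genes it was 37.1 kb within AB-S40331 and 33.4 kb against nuclei without Rorb, Foxp2 and Tle4; for the lower genes it was 35.5 kb and 53.8 kb. Over all Slc17a7 nuclei they were also read more often: the mean share of Slc17a7 nuclei with a read was 38.3% for the higher genes and 45.4% for the lower genes, against 30.9% for all. The part of gene length and of how often a gene is read in these counts was not tested.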

How the data were processed

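Per the labels, each library came from 1 sorted nucleus by SMART-Seq v4 and Nextera XT. Alignment used STAR 2.7.2a on mm10, per the submitters' processing notes. The authors deposited whole-number read counts, neither normalized nor collapsed by molecular identifier; which counter, annotation, strand setting and intron rule were used is not given in the sources used here, so overlapping genes cannot be told apart. Of 2501 columns, 797 were matched to samples by library name and 1704 were not used. Gene rows without a symbol (of 32285 rows, 32158 had one) held 0.0931% of reads; they stayed in the nucleus totals and were not named. Of the 797 nuclei, 16 missed 50000 reads or 1000 genes, leaving 781. No doublet caller was run.

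Counts were scaled to CPM by the nucleus total and taken as log2 after adding 1 (numpy 2.4.6, pandas 2.3.3, scipy 1.17.1, Python 3.11.15). A gene entered if read in 10% of Slc17a7 nuclei, or 20% to be named; the 15 largest differences each way with the same sign in both repeats were named, leaving out genes of the rule, mitochondrial genes and predicted genes. Gene positions are GENCODE M21 on mm10, counted from 1. The members, lists and tests were chosen with earlier results of these data known. The steps were tested on simulated data. Some genes of these lists and families are not reported here.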

Additional observations from a re-analysis of the deposited data

How the results depend on the processing

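The 30 named genes were chosen for their large differences and for the same sign in 2 of these alternatives. The alternatives also share nuclei, so stability of these genes is largely built in. All 30 kept their direction and stayed past 1 log2 unit under all 33 alternatives, 990 of 990 values. Of 31 other genes past 1 log2 unit on the lists, 890 of 1023 values did, 132 fell short and 1 changed sign: Neurod1, at -0.11 with prefix AB-S40331 alone. Against 210 higher and 331 lower genes, a pseudocount of 10 gave 43 and 51, prefix AB-S40331 alone with its own filter gave 317 and 682, and leaving out AB-S40317 gave 222 and 587. Equal weight for vector labels gave 400 and 387, and leaving out nuclei over 1% mitochondrial reads, chosen after seeing the data, 161 and 493. The cause was not tested. Leaving out each vector label in turn gave 53 to 66 members, 15.1% to 18.3% of Slc17a7 nuclei, 179 to 313 higher genes (313 without AiE0387m) and 310 to 419 lower genes. The higher genes were 38.8% of those past 1 log2 unit, but 49.3% with a CPM limit of 20, 53.5% against nuclei without Rorb, Foxp2 and Tle4, 50.8% with equal weights and 24.6% without nuclei over 1% mitochondrial reads. Limits of 5 or 20 CPM each gave 67 members, and thinning to 100000 reads gave 72. At the median depth of Rorb nuclei 1 read is worth 3.72 CPM, so a 0 does not tell a low level from none. No paired analysis was possible because the labels name no animal and replicate numbers only count nuclei within a vector.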
